A study of Mus musculus with 8 samples.

Results

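The transcripts of the circadian clock and of the prokineticin 2 pathway were followed across 4 nuclei of the adult mouse hypothalamus, the arcuate nucleus (Arc), the ventromedial nucleus (VMH), the dorsomedial nucleus (DMH), and the lateral hypothalamus (LH). The 10 genes were the repressors *Per1*, *Per2*, *Per3*, *Cry1*, and *Cry2*, the activators *Clock* and *Arntl*, the output gene *Dbp*, the ligand gene *Prok2*, and the receptor gene *Prokr2*. Every probe whose RefSeq identifier belonged to 1 of these genes was taken, which gave 11 probes of the 55681 on each array (10 of 20284 genes with a symbol), with *Dbp* represented by 2 probes. The nuclei were cut out by laser microdissection from 2 female C57BL/6 mice (C57BL/6J in the methods) at 3 months of age, for which no treatment, transgene, or deletion is given, and each nucleus was read on 2 arrays, numbered replicate 1 and replicate 2. Nothing in the labels or the methods says which array came from which mouse, so the p-values below measure only the spread between these arrays, and neither source gives the time of day at which the tissue was taken.

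In the clock, CLOCK and ARNTL (also called BMAL1) bind as a pair to E-box sequences and switch on the *Per* and *Cry* genes, whose proteins then enter the cell nucleus and block that pair, so that transcript levels rise and fall over the day. The same pair drives output genes such as *Dbp*, which encodes a transcription factor that acts through D-box sequences. Prokineticin 2 is a secreted protein known as an output signal of the suprachiasmatic nucleus (SCN), the central pacemaker, and it acts on receptors that include PROKR2, which many target areas of the hypothalamus carry.

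The promoters of *Prok2*, *Cry1*, *Per1*, and *Per3* are shown because they hold the exact letters of an E-box or a D-box, motifs through which the clock is known to act. RefSeq promoters of build GRCm38.p6 were found for 9 of the 10 genes, with 13 start sites in all, and none was found for *Per2*. Each sequence gives the 250 bases before the annotated start, 5′ to 3′ on the strand of the gene, and capitals mark the motif.
*Prok2*, chr6:99726393-99726642, minus strand: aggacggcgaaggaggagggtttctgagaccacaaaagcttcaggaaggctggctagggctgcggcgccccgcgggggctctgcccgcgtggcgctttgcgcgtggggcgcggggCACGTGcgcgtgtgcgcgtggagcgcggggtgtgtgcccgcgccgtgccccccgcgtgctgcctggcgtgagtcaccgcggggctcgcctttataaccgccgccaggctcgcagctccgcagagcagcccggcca
*Cry1*, chr10:85185055-85185304, minus strand: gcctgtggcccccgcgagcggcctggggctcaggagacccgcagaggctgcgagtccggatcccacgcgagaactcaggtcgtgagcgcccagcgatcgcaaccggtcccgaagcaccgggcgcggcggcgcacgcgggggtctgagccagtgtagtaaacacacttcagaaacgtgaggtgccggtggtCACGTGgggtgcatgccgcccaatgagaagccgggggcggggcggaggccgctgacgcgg
*Per1*, chr11:69098699-69098948, plus strand: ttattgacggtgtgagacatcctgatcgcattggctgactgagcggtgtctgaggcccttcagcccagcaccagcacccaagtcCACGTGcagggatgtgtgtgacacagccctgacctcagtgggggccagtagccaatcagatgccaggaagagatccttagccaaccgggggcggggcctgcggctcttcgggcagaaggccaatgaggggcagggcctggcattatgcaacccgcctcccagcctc
*Per3*, chr4:151044666-151044915, minus strand: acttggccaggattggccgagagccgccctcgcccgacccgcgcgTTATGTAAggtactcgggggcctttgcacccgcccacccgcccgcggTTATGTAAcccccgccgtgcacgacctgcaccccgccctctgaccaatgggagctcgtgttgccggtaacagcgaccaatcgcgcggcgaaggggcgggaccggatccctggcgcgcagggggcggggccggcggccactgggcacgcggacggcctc

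The E-box CACGTG, which reads the same on both strands, began 135 bases before the start of *Prok2*, 60 bases before that of *Cry1*, and 166 bases before the first of the 2 annotated starts of *Per1*. Of all 32851 promoters of this length, 6.02% held an E-box. The D-box, searched as TTATGTAA or TTACGTAA on both strands, stood 205 and 158 bases before the start of *Per3*, and 0.931% of all promoters held it. The core of the ROR response element was searched as AGGTCA on either strand, and 14.0% of all promoters held it. It stood 137 bases before the first start of *Per1*, 119 before 1 of the 3 annotated starts of *Clock*, and 144 before the start of *Prokr2*. The cAMP response element TGACGTCA, which 1.55% of all promoters held, was in none of the 13 windows. These matches are descriptions of the letters in the window and were not tested for binding.

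Across the slide, 47.1% to 52.7% of the spots on an array were well above background, and the nuclei carried their own markers. The summed scaled signal of 6 Arc genes was 157011 to 169208 on the Arc arrays and at most 9745 on the others, and that of 4 VMH genes was 37409 to 37899 on the VMH arrays and at most 3308 elsewhere. The DMH genes summed to 13089 and 15069 in the DMH and to at most 1503 elsewhere, whereas the LH genes summed to 130076 and 141696 in the LH and also to 63362 and 72642 in the DMH. The study had selected several of these genes on the same arrays, most of the DMH genes among them, so the sums are no independent check of the labels. The 2 arrays of a nucleus correlated across probes at 0.972 to 0.982 in the Arc, VMH, and DMH and at 0.938 in the LH. LH1 carried narrow oblique bands of low signal, in which 1415 spots (2.39%) were surrounded by spots at less than 50% of their level on the other arrays, compared with 12 to 117 spots on each other array. In microdissected tissue, fewer cells of a type and less RNA per cell cannot be told apart.

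*Prok2* was measured in the Arc and in no other nucleus. Its scaled signal (the array signal divided by the 75th percentile of that array and rescaled by a constant common to all arrays) was 599 on Arc1 and 1319 on Arc2. It was 32.5 and 21.1 on the VMH arrays, 44.4 and 23.2 on the DMH arrays, and 27.2 and 32.1 on the LH arrays, and none of these was well above background. The groups did not overlap, and the Arc arrays themselves differed 2.2-fold. The other nuclei give only a bound, taken against the lowest signal that was well above background on the array (79.3 to 132). By the geometric mean of its arrays, the Arc signal of *Prok2* exceeded that of the VMH by at least 8.55-fold. It exceeded that of the DMH by at least 9.49-fold and that of the LH by at least 8.69-fold. From Arc1 alone each bound was lower, the lowest being 5.76-fold, against the VMH. From Arc2 alone each was higher, the highest being 14.1-fold, against the DMH. With normexp background correction, the ratio of the mean Arc signal to the next nucleus was 4.71, below all these bounds. The study selected *Prok2* as an Arc gene on these same arrays, so its pattern is given as a description without a test.

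**Figure D1:**
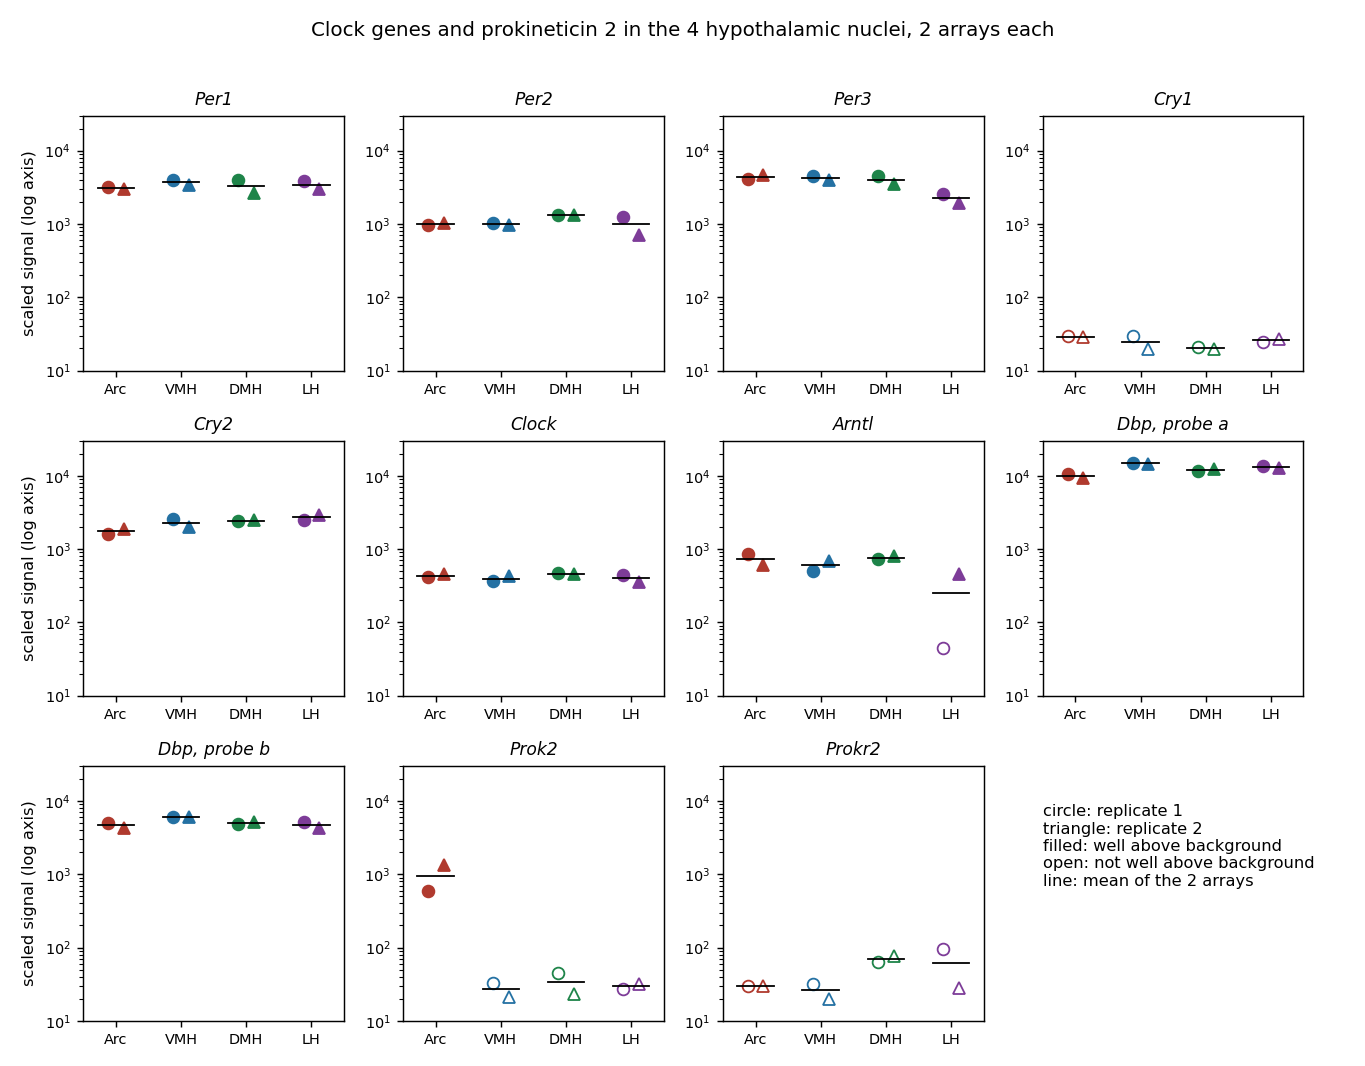
Scaled signal of the 11 probes on a log axis, in the Arc, VMH, DMH, and LH, with a circle for replicate 1, a triangle for replicate 2, and a line at the mean of the 2 arrays; open symbols were not well above background. *Prok2* is filled in the Arc only, *Cry1* and *Prokr2* are open everywhere, *Per3* lies lowest in the LH, and the open *Arntl* circle is LH1 at 45.1.

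The SCN, for which *Prok2* is best known, was not among the nuclei analysed here, so its markers were read beside this result. Of 6 SCN genes, *Vip*, which encodes the peptide that defines a large class of SCN neurons, stayed near the minimum on all 8 arrays, with signals of 18.8 to 28.3 that were not well above background. *Six6*, which encodes a homeodomain protein of the SCN and other ventral hypothalamic cells, was well above background on the Arc arrays only, at 900 and 1293. *Lhx1* was highest in the LH (608 and 657, against 355 and 432 in the Arc) and *Rgs16* highest in the DMH (760 and 761, against 398 and 307 in the Arc), whereas *Vipr2* and *Nms* were not well above background on most arrays. Of 3 tested probes, 2 were called in favor of the Arc against the VMH (2.4% of all probes), 1 against the DMH (0.533%), and 1 against the LH (3.33%). The whole list summed to 2010 and 2278 on the Arc arrays, 808 and 1092 on the VMH arrays, 1456 and 1516 on the DMH arrays, and 1239 and 1305 on the LH arrays. Without the brightest probe, of *Rgs16*, it summed to 1612 and 1972 in the Arc and to 263 to 1019 elsewhere. Tanycyte and ependymal genes, which mark the lining of the third ventricle, summed to 8367 and 9871 in the Arc and to 3881 to 6675 elsewhere. Of 7 tested probes of that list, 3 were called in favor of the Arc against the VMH, 3 against the DMH, and 3 against the LH. Over all probes these shares were 2.4%, 0.533%, and 3.33%. *Ccdc153* and 1 *Col25a1* probe were not highest in the Arc, and *Foxj1* had no reading well above background. The part of these cells in the *Prok2* signal was not tested.

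The probes of other genes whose log2 signals were most like that of *Prok2* over the 8 arrays belonged to *Snai2* (Pearson's r = 0.995), *Socs2* (r = 0.991), and *Nr5a2* (r = 0.988). The 8 points come from 4 nuclei, so these values describe mainly a difference of the Arc from the rest. *Snai2*, which encodes a zinc-finger repressor, read 174 and 415 in the Arc and at most 27.7 elsewhere, and *Socs2*, which encodes an inhibitor of cytokine and growth hormone signaling, read 1972 and 2596 in the Arc and 481 to 680 elsewhere. *Nr5a2*, an orphan nuclear receptor gene, read 433 and 580 in the Arc and at most 28.1 elsewhere. Outside the Arc, the readings of *Snai2* and *Nr5a2* lay below the lowest signal well above background on any array (79.3), as did those of *Prok2*.

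The receptor and the other prokineticin genes gave no measured signal. *Prokr2* read 30.2 and 29.6 in the Arc, 32.3 and 20.1 in the VMH, 63.9 and 77.8 in the DMH, and 96.7 and 28.3 in the LH, and none of these was well above background. *Prok1*, the gene of the other ligand, and *Prokr1*, the gene of the other receptor, likewise had no reading well above background.

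The clock genes other than *Cry1* were measured in all 4 nuclei. Of the 10 probes of the 9 genes other than *Prok2*, 8 probes of 7 genes passed the filter on dim probes, and 7 of the 8 were well above background on all 8 arrays. In limma's F-test over the 4 nuclei, 0 of these 8 probes passed an adjusted p of 0.05, where 8.34% of the 28896 probes tested passed. An unadjusted p under 0.05 was reached by 1 of the 8, *Per3*, and by 24.6% of all probes tested, and the test without moderation called 0 as well. Of 48 comparisons between a pair of nuclei, 1 passed, for *Per3* between the Arc and the LH. Over all probes tested, 9.34% were called in that pair, 5.92% between the Arc and the VMH, 5.28% between the VMH and the LH, 2.04% between the VMH and the DMH, 1.26% between the Arc and the DMH, and 0.924% between the DMH and the LH. The largest difference between any 2 nuclei had a median of 0.53 on the log2 scale over the 8 probes and 0.65 over all probes tested.

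Among the repressors, *Per3* was lower in the LH. Its scaled signal was 4104 and 4685 in the Arc, 4540 and 3974 in the VMH, 4530 and 3472 in the DMH, and 2530 and 1948 in the LH. Both LH arrays lay below all 6 others, and the other nuclei overlapped. The mean signals were 4395 ± 411 (SD, n = 2) and 2239 ± 412 (SD, n = 2) in Arc and LH, which differed by 0.98 on the log2 scale (SE 0.24, 95% interval 0.41 to 1.55) with an adjusted p of 0.0498 by limma, and 3.33% of all probes were called higher in the Arc than in the LH. The VMH exceeded the LH by 0.94 (SE 0.24, adjusted p = 0.0775 by limma) and the DMH did so by 0.84 (SE 0.24, adjusted p = 0.189 by limma), and neither passed. The Arc call was lost when any array except LH1 was left out, with adjusted p-values of 0.0715 to 0.206 by limma and log2 differences of 0.79 to 1.08, and it was also lost without scaling (0.224) and with the replicate block (0.0550).

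The LH arrays differed from the others in glial and other marker transcripts as well. Of 12 probes of oligodendrocyte genes, 10 were called in favor of the LH over the Arc, as were 6.02% of all probes, and 1, of *Mbp*, was called the other way. Their summed signal was 126923 and 133871 in the LH, 36287 and 37193 in the DMH, 44306 and 51101 in the VMH, and 19941 and 26733 in the Arc. Astrocyte genes summed to 54930 and 68489 in the LH and to 32551 to 43446 elsewhere, with 2 of 8 probes called over the Arc. Without the brightest probe, of *S100b*, the astrocyte sums were 22998 and 28159 in the LH and 17212 to 23558 elsewhere, and *Gfap* was highest in the Arc. Endothelial genes summed to 5987 and 7165 in the LH and to 2777 to 4718 elsewhere, with 3 of 6. Microglial genes summed to 87085 and 87900 in the LH and to 102315 to 124655 elsewhere, an order set by 1 *Csf1r* probe, without which they summed to 19433 and 24780 in the LH and to 14365 to 17816 elsewhere. Genes of the neighboring paraventricular nucleus (*Crh*, *Sim1*, *Oxt*, *Avp*, and *Trh*) summed to 11874 and 20149 in the LH, 7831 and 12651 in the DMH, 586 and 1462 in the VMH, and 7087 and 1296 in the Arc, with 2 of 4 tested probes called in favor of the LH over the Arc. Among them *Oxt*, the oxytocin gene, differed between arrays of a nucleus, at 6559 on Arc1 and 848 on Arc2, 25.4 on VMH1 and 1242 on VMH2, and 109 on LH1 and 8332 on LH2. *Sim1* was not well above background on the arrays. The part of the cell composition in the *Per3* difference was not tested.

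*Per1*, which responds rapidly to light in the pacemaker, and *Per2* gave no difference that passed. *Per1* was 3205 and 2994 in the Arc, 3975 and 3378 in the VMH, 3968 and 2644 in the DMH, and 3830 and 2981 in the LH. *Per2* was 977 and 1019 in the Arc, 1036 and 978 in the VMH, 1304 and 1331 in the DMH, and 1261 and 709 in the LH. Both DMH arrays were the highest for *Per2*, but LH1 came close to them and LH2 was the lowest array of all. The largest *Per1* difference was 0.24 (Arc below VMH, adjusted p = 0.699 by limma) and the largest *Per2* difference was 0.48 (DMH above LH, adjusted p = 0.45 by limma). No difference passed, yet the 95% intervals allowed differences of up to 1.83-fold for *Per1* and 2.23-fold for *Per2*.

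*Cry2*, which encodes a cryptochrome that represses the activator pair, was lowest in the Arc. It read 1627 and 1895 in the Arc, 2596 and 1990 in the VMH, 2414 and 2463 in the DMH, and 2487 and 2931 in the LH. Both Arc arrays lay below all 6 others, but no comparison passed the adjusted threshold. The largest, Arc minus LH, was -0.62 (SE 0.22, 95% interval -1.15 to -0.09, adjusted p = 0.134 by limma). *Cry1*, which encodes the other cryptochrome, read 19.6 to 30.0, with no array well above background, so it gives a bound and no comparison.

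Among the tested probes of the genes followed here, the activator *Clock* had the narrowest range with the main scaling. It read 417 and 451 in the Arc, 368 and 423 in the VMH, 471 and 455 in the DMH, and 440 and 355 in the LH. Its highest and lowest nucleus means differed 1.17-fold, and the largest log2 difference, VMH below DMH, was 0.23 with an adjusted p of 0.749 by limma. The 95% intervals allowed no difference above 1.65-fold between any 2 nuclei.

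*Arntl*, the partner of *Clock*, gave the widest differences of the 8 tested clock gene probes, those from the LH, which rested on a single spot. It read 866 and 611 in the Arc, 508 and 697 in the VMH, 739 and 795 in the DMH, and 45.1 on LH1 against 454 on LH2. Only the LH1 reading was not well above background. That spot, in row 267 and column 57 of the array, lay on one of the bands of low signal, and the 5 nearest measured spots were at 31.8% of their level on the other arrays (a log2 residual of -1.65). Around the other 87 spots of the 11 probes the residual was -0.59 at the lowest.

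**Figure D2:**
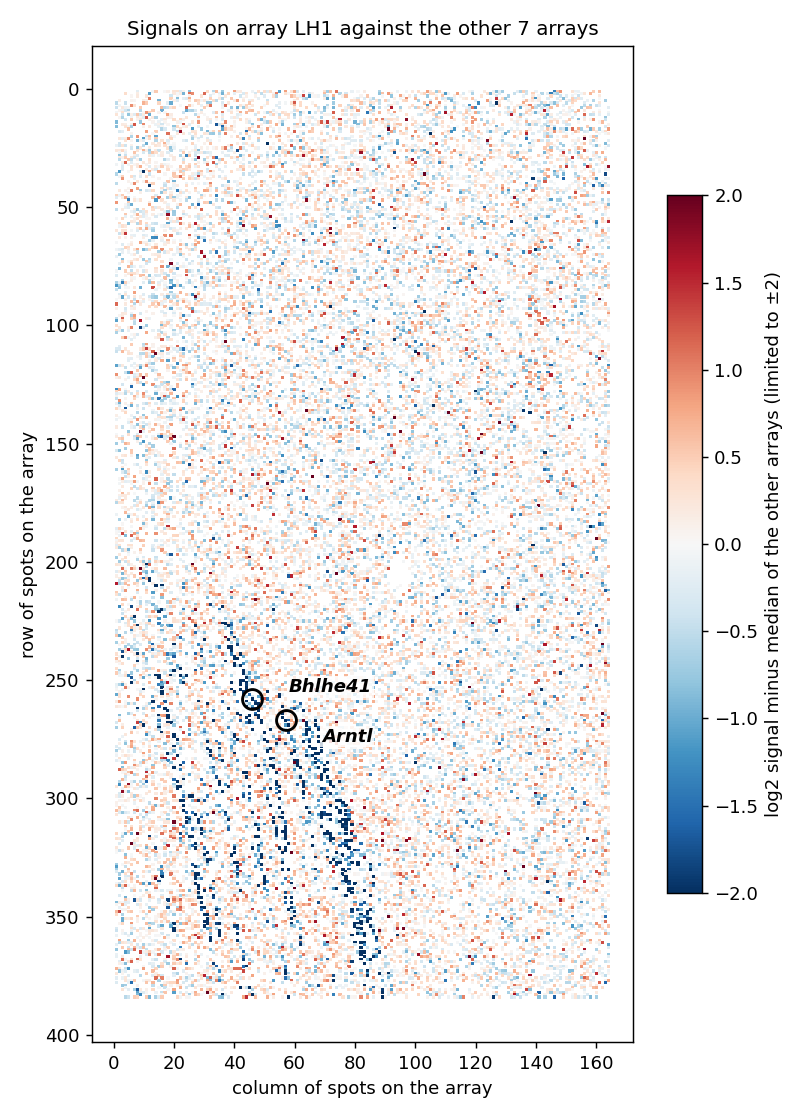
Map of array LH1, with each measured spot at its row and column and colored by its log2 signal minus the median of the other 7 arrays. Oblique blue bands of low signal cross the lower left, and the circled *Arntl* and *Bhlhe41* spots lie on them.

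With all arrays, *Arntl* was 2.35 lower in the LH than in the Arc on the log2 scale (SE 0.93, adjusted p = 0.164 by limma), and no comparison of it passed. Without LH1 the difference was 0.68 with an adjusted p of 0.214 by limma, and with the spots in such bands left out it was 0.68 with an adjusted p of 0.259. Without LH2 the LH rested on the LH1 spot alone, and no difference is given. LH2 was the lowest of the 7 remaining arrays, close below VMH1 at 508.

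The output gene *Dbp* had its highest signals in the VMH with both probes. The first probe (A_55_P2032079) read 10539 and 9369 in the Arc, 15121 and 14455 in the VMH, 11787 and 12375 in the DMH, and 13643 and 12578 in the LH. The second (A_55_P2032081) read 4985 and 4295 in the Arc, 6090 and 6120 in the VMH, 4920 and 5144 in the DMH, and 5228 and 4235 in the LH. Both VMH arrays were above all others with each probe, whereas both Arc arrays were below all others with the first probe only. Arc minus VMH was -0.57 (SE 0.19, adjusted p = 0.145 by limma) with the first probe and -0.40 (SE 0.21, adjusted p = 0.342 by limma) with the second, and neither passed, where 3.52% of all probes were called lower in the Arc than in the VMH.

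**Figure D3:**
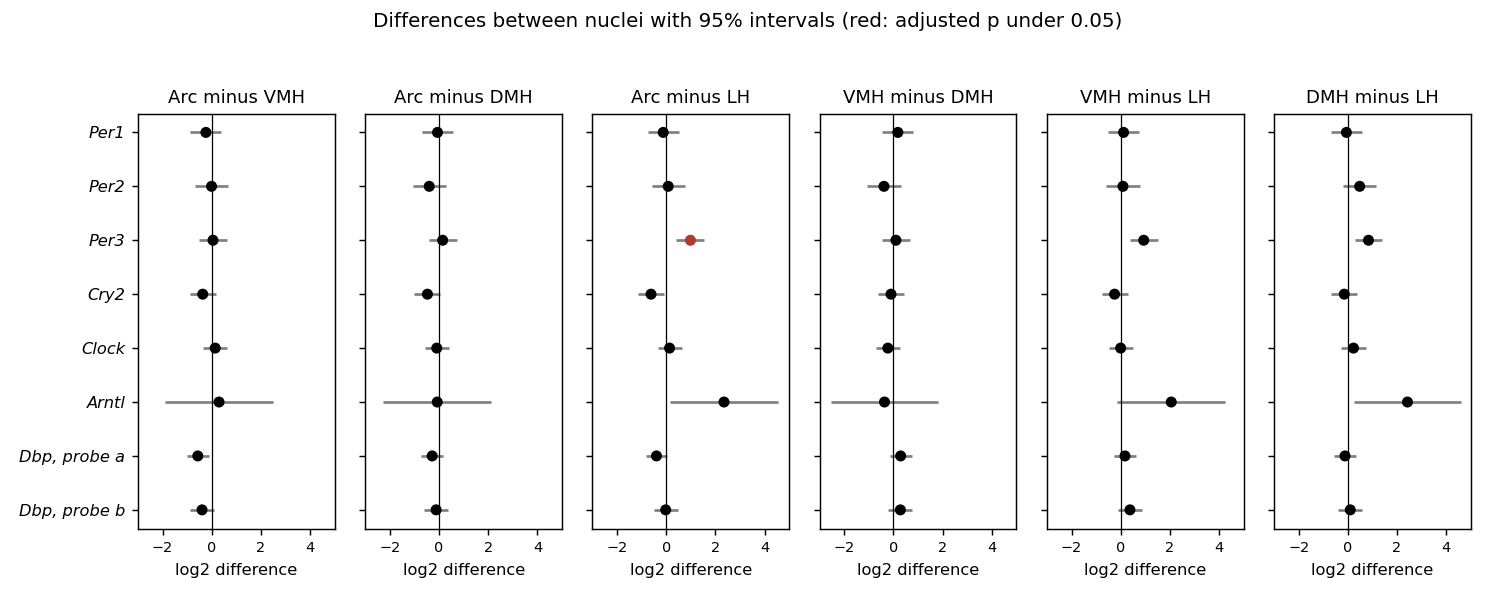
Log2 differences between pairs of nuclei (points) with 95% intervals (lines) for the 8 tested probes of the clock genes, 1 panel for each pair. The single red point is *Per3* in Arc minus LH at 0.98, and the wide *Arntl* intervals include the LH1 spot.

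The separation of the arrays was also counted, whether or not a test passed. Both arrays of the highest nucleus were above all other arrays for 4 of the 8 probes. Both arrays of the lowest nucleus were below all others for 4 of the 8, with *Per3* and *Arntl* among the latter. Over the 28765 tested probes with a value on every array these shares were 31.2% and 30.3%. For *Arntl*, the LH1 spot lay on a band of low signal, and LH2 (454) lay close below VMH1 (508).

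The array numbered 2 gave a lower *Per1* signal than the array numbered 1 in all 4 nuclei, by 0.59 (DMH), 0.36 (LH), 0.23 (VMH), and 0.10 (Arc) on the log2 scale. The coefficient of the replicate number for *Per1* was -0.32 (SE 0.15, adjusted p = 0.672 by limma). No other of the 8 probes moved the same way in all 4 nuclei, and the share over all probes was not counted. None of the 8 probes had an unadjusted p under 0.05 for the replicate number, where 8.09% of the 28896 probes tested had one. By limma, 0 of the 28896 passed the adjusted threshold. The number coincided with the row of the slide, and whether it also stands for a mouse is not given. A difference between rows and any between mice therefore cannot be told apart.

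Further genes of the clock and of the prokineticins were read from a list of 26, of which 22 genes with 32 probes passed the filter. Of these probes, 2 passed the F-test, *Fbxl21* and *Arntl2*, where 8.34% of all probes did, and 5 passed in at least 1 pair of nuclei, where 13.6% of all probes did. The 7 probes of the second loop and the D-box factors (such as *Nr1d1*, *Rora*, *Rorb*, *Tef*, and *Hlf*) had 0 F-test calls in limma (0 calls without moderation), the 8 probes of paralogs and further repressors had 1, and the 17 probes of kinases and protein turnover had 1. An unadjusted p under 0.05 was reached by 3 of the 7, 4 of the 8, and 5 of the 17 probes, beside the 24.6% over all probes. The median of the largest difference was 0.70, 1.03, and 0.38 on the log2 scale in these groups, beside 0.65 over all probes.

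*Fbxl21*, which encodes an F-box protein that controls the turnover of cryptochromes, was lower in the VMH. It read 3283 and 3073 in the Arc, 1421 and 1584 in the VMH, 3449 and 3601 in the DMH, and 4008 and 3290 in the LH. Both VMH arrays lay below all 6 others, and the DMH and LH arrays overlapped. The VMH was 2.12-fold lower than the Arc (log2 difference 1.08, SE 0.20, adjusted p = 0.0268 by limma), 2.35-fold lower than the DMH (adjusted p = 0.0316), and 2.42-fold lower than the LH (adjusted p = 0.0176), and 0.484% of all probes were called lower in the VMH than in each other nucleus. A second *Fbxl21* probe had no reading well above background. The Arc and DMH calls were lost without any of the Arc, VMH, or DMH arrays (adjusted p = 0.0591 to 0.202 by limma) and the LH call without either VMH array (0.0764 and 0.117), with log2 differences from the VMH of 1.00 to 1.35 in size. All 3 calls were lost without scaling (adjusted p = 0.284, 0.122, and 0.138 by limma against the Arc, DMH, and LH), and the DMH call also with the replicate block (0.0557). In fits of only the 2 nuclei compared, the DMH call (0.0542) and the LH call (0.12) were lost.

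*Arntl2*, the paralog of *Arntl*, was highest in the Arc. Its measured probe read 252 and 259 in the Arc, 172 and 139 in the VMH, 107 and 118 in the DMH, and 61.2 and 97.2 in the LH, where neither reading was well above background. The Arc, VMH, and DMH arrays did not overlap, whereas the order of the DMH and the LH cannot be read at these signals. Its Arc signal exceeded the LH by at least 2.5-fold (adjusted p = 0.0114 by limma, from the fit to the LH readings as given), and no other pair passed. The call was lost without Arc1 (adjusted p = 0.0814 by limma) and without Arc2 (0.0748). It was also lost in a fit of only the Arc and LH arrays (adjusted p = 0.0691 by limma) and without moderation. With normexp background correction it was lost too (adjusted p = 0.0684 by limma). The log2 difference was then 0.61, compared with 1.73 in the main fit, a smaller excess than the bound above. A second *Arntl2* probe had no reading well above background.

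**Figure D4:**
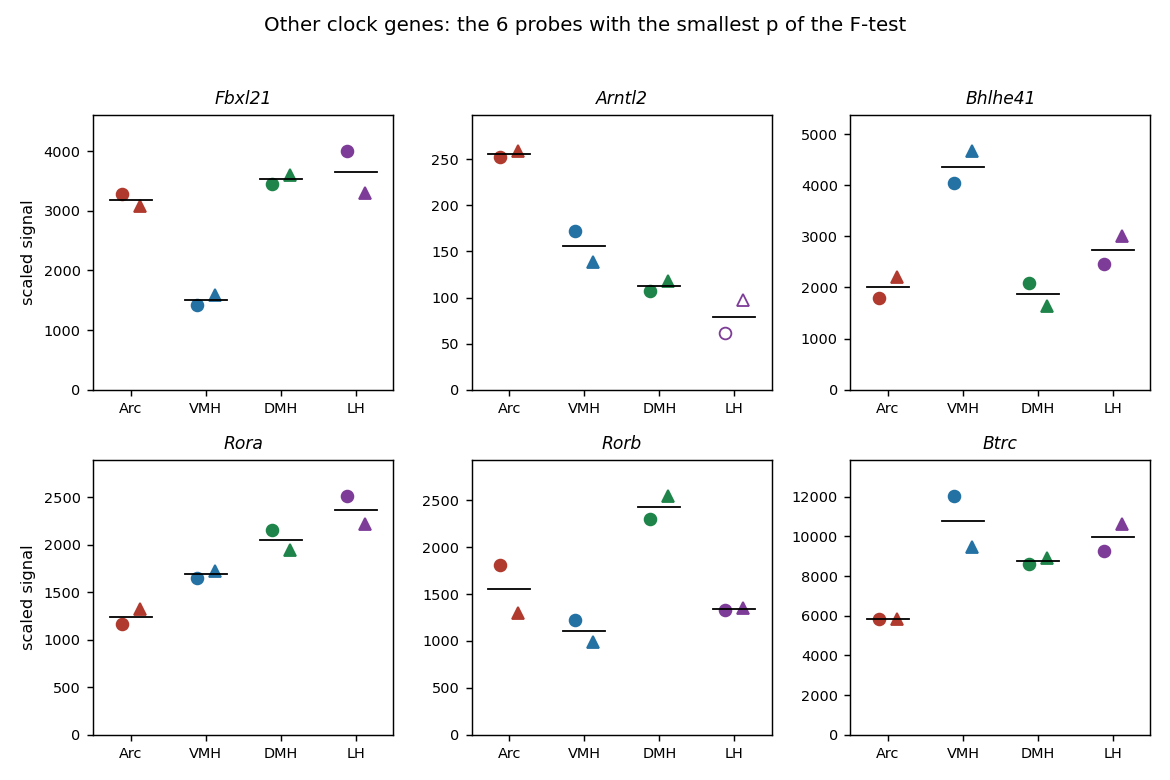
Scaled signal on a linear axis of the 6 other clock gene probes with the smallest p of the F-test, with circles for replicate 1, triangles for replicate 2, lines at the mean of the 2 arrays, and open symbols where a probe was not well above background. *Fbxl21* is lowest in the VMH and *Arntl2* highest in the Arc; the other 4 did not pass the F-test.

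Among the repressors, *Bhlhe41* (DEC2) read 1800 and 2206 in the Arc, 4041 and 4677 in the VMH, 2081 and 1646 in the DMH, and 2456 and 3008 in the LH. It was 2.18-fold higher in the VMH than in the Arc (adjusted p = 0.0397 by limma) and missed the F-test (adjusted p = 0.0518). A second probe of the gene was also highest in the VMH, at 708 and 1066, and its LH1 spot lay on a band of low signal. The first probe lost the call without any Arc, VMH, or DMH array, with adjusted p-values of 0.0661 to 0.247 by limma and VMH excesses over the Arc of 0.98 to 1.27. It was also lost without scaling (0.0652) and with the replicate block (0.0577).

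The second loop runs through ROR activators and REV-ERB repressors, which set the level of *Arntl*. *Rora* read 1167 and 1321 in the Arc, 1652 and 1727 in the VMH, 2156 and 1944 in the DMH, and 2514 and 2217 in the LH, and the LH exceeded the Arc 1.9-fold (adjusted p = 0.0318 by limma). That call was lost without any array except LH2, with adjusted p-values of 0.0615 to 0.196 by limma, without scaling (0.110), and in a fit of only the Arc and LH arrays (0.124). *Rorb* read 1811 and 1300 in the Arc, 1227 and 988 in the VMH, 2299 and 2546 in the DMH, and 1335 and 1346 in the LH, and its F-test missed the threshold (adjusted p = 0.086 by limma). *Nr1d1*, the gene of REV-ERBα, read 1184 to 2035 over the 8 arrays with no pair called.

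*Btrc*, which encodes the F-box protein that targets PER proteins for degradation, read 5851 and 5849 in the Arc and 8610 to 12047 elsewhere with 1 probe (F-test adjusted p = 0.111 by limma), but 884 to 1415 with no such separation with another. *Cipc*, an inhibitor of CLOCK, read 1.78-fold more in the LH than in the Arc with 1 of its 2 probes (adjusted p = 0.0498 by limma). That call was lost without any single array (adjusted p = 0.0536 to 0.272 by limma), without scaling (0.140), and with quantile normalization (0.0604). It was also lost with the deposited rounded signals (0.0512), outlier spots retained (0.0514), the replicate block (0.0693), and a fit of only the Arc and LH arrays (0.161). The second probe read 929 and 1164 in the Arc and 1427 and 2419 in the LH. None of the called differences of the clock genes changed direction without scaling or with quantile normalization.

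**Figure D5:**
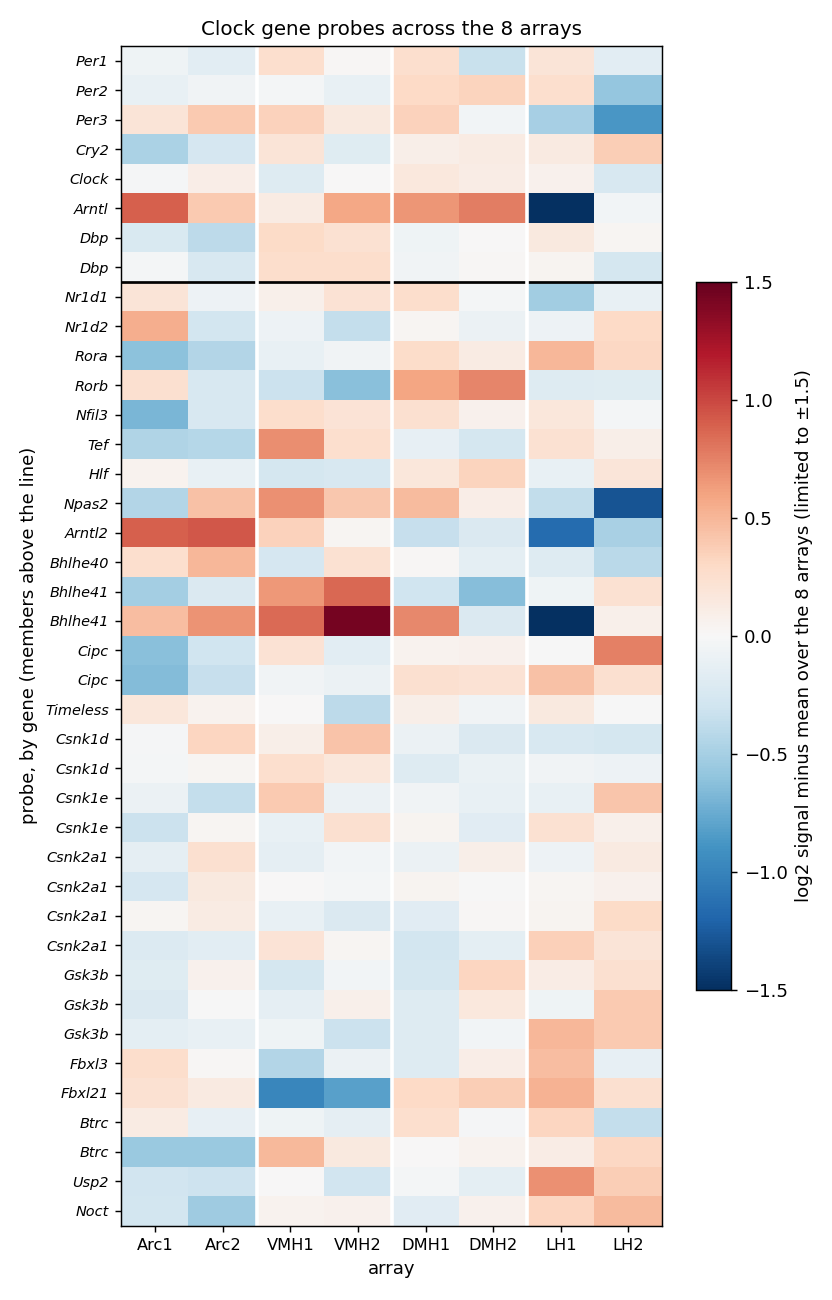
Log2 signal of each tested clock gene probe minus its mean over the 8 arrays (color, limited to 1.5 in either direction), with the 8 probes of the clock genes above the line and the 32 probes of the further genes below it. The darkest blue cells are *Arntl* and the second *Bhlhe41* probe on LH1, and *Fbxl21* is blue on both VMH arrays.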

How the data were processed

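RNA of the Arc, VMH, DMH, and LH was hybridized to 8 arrays of 1 slide in 1 color, 2 arrays per nucleus. The authors extracted each spot with Agilent Feature Extraction (10.7.3.1 per the file headers, 11.5.1.1 per the labels). Its processed signal, as deposited, is a linear intensity after background subtraction and removal of spatial trends, with the lowest values set to a minimum and the arrays not scaled to each other. Only the red channel is present, although Cy3 is named in the labels and Cy5 in the methods. The series also has a deposited table with these signals rounded.

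Spots marked as outliers were left out, spots of a probe averaged, each array divided by its 75th percentile, and log2 taken. A model with a mean per nucleus was fitted with limma 3.58.1 in R 4.3.3 to 28896 probes measured above background on each array of some nucleus, leaving 4 residual and 3.02 prior degrees of freedom. It was tested on simulated data. Benjamini-Hochberg adjustment ran over all probes of a comparison, with a threshold of 0.05. Precision is limited by having 2 arrays per nucleus and, for dim probes, by the background. Probes were named through RefSeq identifiers, which gave a symbol to 26762 of 28390 (94.3%).

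All probes of the 10 genes are named. For *Prok2*, the 3 other genes most correlated with it are named. Of the further clock genes, the 6 probes with the smallest F-test p and any that passed are named, and markers where a label was checked. *Cipc*, *Nr1d1*, *Prok1*, *Prokr1*, second probes, and single glial, SCN, paraventricular, and tanycyte markers were named after their values were seen. The genes and lists were chosen with earlier results of these data known.

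Alternatives were no scaling, quantile normalization, the rounded table, normexp (offset 50), no filter on dim probes, the filter applied to all 8 arrays, dim signals raised to the floor, outlier spots retained, the replicate number as a block, each array left out, trended and robust moderation, the test without moderation (with Tukey-Kramer for pairs), fits of only 2 nuclei, and, for *Prok2*, the geometric mean. Leaving out spots in bands of low signal, whose 5 nearest measured spots had a median log2 residual under -1, was chosen after seeing the data.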

Additional observations from a re-analysis of the deposited data

How the results depend on the processing

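The count of 0 clock gene probes passing the F-test became 1 with normexp and with trended and robust moderation, each time *Per3*, and 0 to 1 when an array was left out. The 1 comparison that passed became 0 without scaling, without the filter on dim probes, with the replicate block, without moderation, and with fits of only 2 nuclei, and 2 with normexp, with the filter on all 8 arrays, and with trended and robust moderation (*Per3* in the Arc and the VMH against the LH). It was 0 to 3 when an array was left out, the 3 being *Arntl* without LH2, where the LH rests on the LH1 spot alone and takes its spread from the other nuclei. The count of 2 further probes passing the F-test became 0 without scaling, without the filter, and without moderation, 1 with quantile normalization and with the replicate block (*Fbxl21*), 5 with normexp, and 6 with trended and robust moderation, and it was 0 to 4 when an array was left out. *Arntl2* was not among those passing with normexp, with trended and robust moderation, or with dim signals raised, and was not tested with the filter on all 8 arrays. Of the pair calls named for further genes, none held without moderation, and without the filter on dim probes only those of *Fbxl21* between the VMH and LH and of *Arntl2* did. No setting made a clock gene probe pass for the replicate number. The causes of these changes were not tested.

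For *Prok2*, the ratio of the mean Arc signal to the next nucleus, where it was not well above background, was 28.4, and it was 4.71 with normexp, 9.08 with dim signals raised, 13.5 and 41.1 with the replicate block (within number 1 and number 2), and 17.7 to 39 when an array was left out. *Per3* in Arc minus LH kept its direction in all 21 alternatives and its call in 9, with adjusted p-values of 0.0189 to 0.317 by limma or, without moderation, the Tukey-Kramer test.

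Deviations of same-numbered arrays correlated at -0.03 to 0.26 between nuclei, not above 0.1 for every pair, so the number was not taken to pair the arrays. It coincides with the slide row, so the replicate block is also a block on the row. Without scaling, the median difference over all probes, Arc minus DMH, was -0.46 on the log2 scale, compared with 0.02 after scaling, and this was the pair with the widest median.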
